A study of Mus musculus with 6 samples.

Results

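The comparison described here sets the whole skin of antigen-on mice (labelled AG) against that of antigen-off mice (labelled NO_AG), with every deposited cell counted. It holds 17234 of the 21178 cells of the series: 4972 and 4095 from the 2 NO_AG mice, and 3503 and 4664 from the 2 AG mice. All mice are of the NINJA strain, a line built for inducible expression of a neoantigen, and were 6 to 12 weeks old. The cells came from skin treated with 4-OH-Tam, an active form of tamoxifen. A further 2 AG_CPI mice, antigen-on mice that the series describes with CPI, were not compared. They lent their spread to the tests and also helped decide which genes were abundant enough to test. The labels give the replicates as biological, and give no sex, batch, date or time after induction. They also say that the mice had been checked for visible skin pathology and for P14 CD8 T cells in the skin before sequencing. What drives the antigen, and in which cells, is not given in the sources used here.

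The levels of a gene in whole skin depend on which cells are present and on what each cell makes. Skin holds keratinocytes, which form the epidermis and hair follicles, resident T cells including the gamma-delta dendritic epidermal T cells, Langerhans cells and macrophages. When CD8 T cells meet their antigen they release chemokines, granzymes and interferon gamma, and interferons switch on antiviral, antigen-presentation and chemokine genes in the cells around them. To keep these parts separate, each cell was put through 3 gates: a T gate (a UMI, or unique molecular identifier, of Cd3e or Cd3g), a myeloid gate (a UMI of both Lyz2 and Csf1r) and a keratinocyte gate (Krt5 plus Krt14 at 50 or more per 10000 UMIs, with no UMI of Ptprc). Cells that passed more than 1 gate, or none, were kept as classes of their own. A gate is a range on a few genes and not a cell type.

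The median number of UMIs per cell was 4249 and 4744 in the NO_AG mice and 3475 and 2612.5 in the AG mice. Between 13 and 35 barcodes were shared by any 2 of these 4 libraries. No doublets were removed, and cells that passed more than 1 gate made up 2.65% to 10.1% of a library. AG mouse 2 stood apart from the other 3. C1qb, a macrophage gene, had a UMI in 14.4% of its keratinocyte-gate cells, against 1.09% in AG mouse 1 and 0.055% and 0.303% in the NO_AG mice. Cd3d, a T cell gene outside the gates, had a UMI in 13.4% of those cells, against 2.55%, 0.826% and 1.97%. The median depth of these cells was 2484 UMIs in AG mouse 2 and 6999.5 in AG mouse 1. Values are therefore given for each mouse, with counts of calls without AG mouse 2.

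The make-up of the skin differed between the groups. The T gate held 26.3% and 32.1% of the cells in the NO_AG mice and 55.3% and 35.7% in the AG mice. Both AG mice lay above both NO_AG mice, AG mouse 2 by a small margin. With stricter gates the T-gate shares were 24.3% and 31.2% against 53.3% and 31.7%. The gate genes over all cells gave no such order: Cd3e was at 9.97 and 9.18 UMIs per 10000 without antigen, and at 13.3 and 4.76 with it. The myeloid gate held 0.623% and 0.488% of cells without antigen (31 and 20 cells) and 3.85% and 8.02% with antigen (135 and 374 cells). Its mean share was 10.7 times as high, at 5.94% ± 2.95 against 0.556% ± 0.0955 (SD, n = 2 each). The keratinocyte gate held 36.5% and 32.2% of cells without antigen and 23.5% and 25.2% with antigen. Cells of no gate were 33.1% and 28.6% without antigen, and 14.6% and 21.0% with it. An exact two-sided permutation test of 2 mice against 2 cannot give a p below 0.333, and it gave 0.333 for each of these 4 classes. Thinning every cell to 1500 UMIs gave T-gate shares of 23.8% and 27.8% against 52.6% and 31.9%, and myeloid shares of 0.342% and 0.317% against 2.14% and 4.93%. How much of these shares comes from the preparation of the cells rather than from the skin was not tested.

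**Figure D1:**
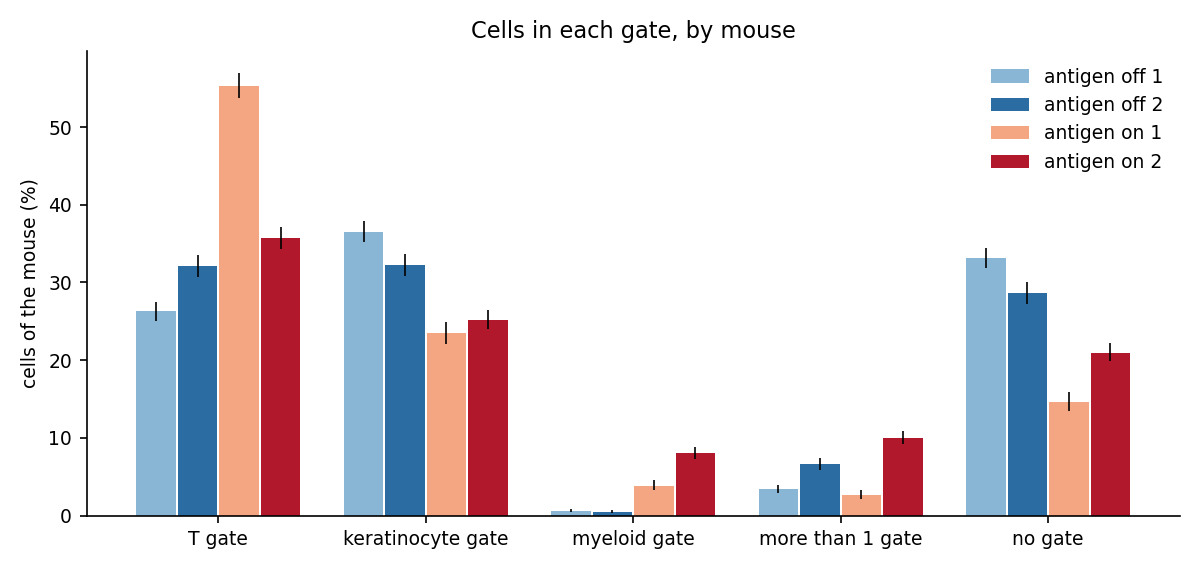
Share of each mouse's cells (y axis, %) in the T gate, keratinocyte gate, myeloid gate, more than 1 gate and no gate (x axis), with bars for each of the 4 mice and Wilson 95% intervals that cover counting error only. The T-gate bar of antigen-on mouse 1 reaches 55.3%, and the myeloid bars rise from below 1% in the antigen-off mice to 3.85% and 8.02%.

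The kinds of cell inside the T gate shifted as well. Cd8a had a UMI in 8.79% and 29.96% of T-gate cells in the NO_AG mice and in 49.9% and 48.2% in the AG mice. Trdc, the constant segment of the gamma-delta receptor, was found in 49.8% and 32.8% against 24.6% and 24.3%, and Foxp3, the factor of regulatory T cells, was found in 2.45% and 1.83% against 10.4% and 7.21%. Trbv13-3, the beta segment known as Vbeta8.1 that the P14 receptor uses, had a UMI in 0.765% and 2.05% of T-gate cells without antigen and in 29.0% and 32.8% with it. This segment was picked with its values known, outside the naming rule. Among keratinocyte-gate cells, which should lack it, it was seen in 0% and 0% without antigen and in 0.243% and 3.14% with antigen. As shares of all cells, T-gate cells with Cd8a or Cd8b1 and no Trdc UMI were 2.63% and 10.5% without antigen and 24.0% and 14.9% with antigen.

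Averaged over all cells of a mouse, 8865 genes were abundant enough to test, counting the AG_CPI mice (8597 with the other 4 mice only). Of these, 751 (8.47%) were called, 370 higher in AG (4.17%) and 381 lower (4.3%), at a Benjamini-Hochberg adjusted p under 0.05 in limma. The median log2 change of all genes was -0.11. Scaling by trimmed means (TMM) moved that median to -0.02 (in the T gate from -0.13 to -0.01, in the myeloid gate from -0.01 to 0.11) and gave 374 higher and 181 lower genes. A pseudocount of 0.5 gave 327 and 614 and one of 0.02 gave 365 and 180, so the balance of higher and lower calls depends on both choices. Only 23 calls were left without NO_AG mouse 1 and 59 without NO_AG mouse 2, fits in which the remaining NO_AG mouse is assumed to vary like the other groups. There were 917 calls without AG mouse 1 and 1155 without AG mouse 2. The higher calls of the interferon, GTPase, class I, chemokine, cytotoxic, inhibitory receptor and Fc receptor lists described below also depend on the mouse left out. They were fewest without a NO_AG mouse, where most calls of each of these lists were lost. For the class I, chemokine and cytotoxic lists, another of these fits gave more calls than the main fit. Of the 15 higher and 10 lower genes with the largest changes, 14 were called without NO_AG mouse 1, 16 without NO_AG mouse 2, 24 without AG mouse 1 and 23 without AG mouse 2.

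**Figure D2:**
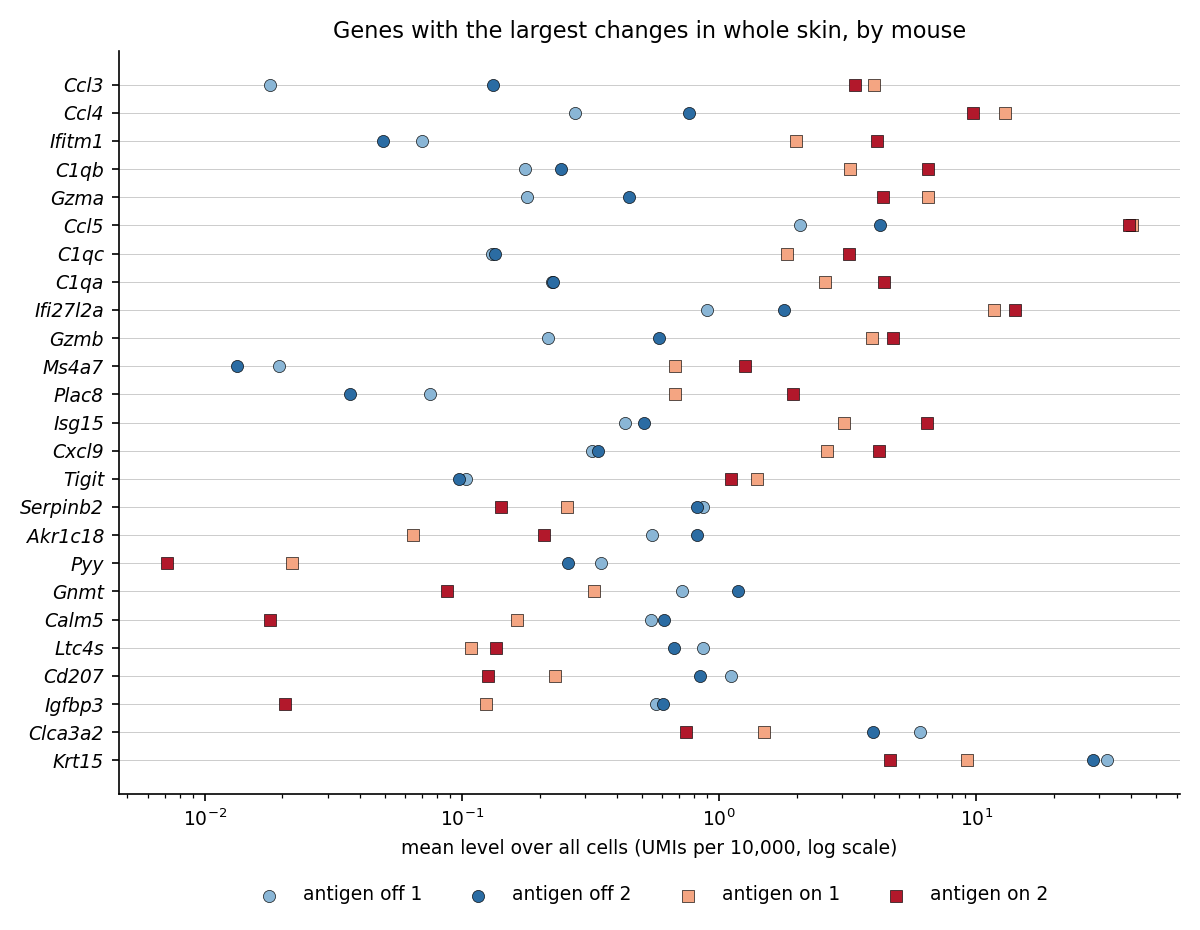
Mean level over all cells (x axis, UMIs per 10000, log scale) of the 25 genes with the largest changes in whole skin (y axis), with circles for the 2 antigen-off mice and squares for the 2 antigen-on mice. The rule that chose these genes required groups that do not overlap, and Ms4a7, Ifitm1 and Ccl3 have the largest ratios of group means among the genes that rose.

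Chemokines, the secreted proteins that attract leukocytes, held 4 of the 15 named increases. Ccl5, a chemokine made by activated T cells, was at 2.06 and 4.23 UMIs per 10000 in the NO_AG mice and at 40.1 and 39.3 in the AG mice. The AG mice were nearly equal and far above both NO_AG mice, with a log2 change of 3.70 ± 0.29 (SE, adjusted p = 0.00282). Ccl4, also made by activated T cells, was at 0.274 and 0.765 without antigen and at 12.9 and 9.72 with it, a log2 change of 4.31 ± 0.36 (adjusted p = 0.00358). Ccl3 was at 0.0178 and 0.132 against 4.01 and 3.36, a log2 change of 4.51 ± 0.30 (adjusted p = 0.00271). Whether reads of Ccl3 and Ccl4 are shared with related chemokine genes was not tested. Ccr2, a chemokine receptor of monocytes, rose from 0.0836 and 0.104 to 0.362 and 0.393.

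Cxcl9, an interferon-gamma-induced ligand of the T cell receptor Cxcr3, was at 0.319 and 0.338 without antigen and at 2.63 and 4.18 with antigen (log2 change 3.0 ± 0.22, adjusted p = 0.00271). Cxcl10, a second ligand of Cxcr3, was at 0.279 and 0.465 against 1.69 and 1.94. Of 27 chemokine genes with a column, 19 passed the filter on low levels, and 9 of them rose while 2 fell. Of the 12 at 0.1 or more in all 4 mice, 5 rose and 1 fell. The median log2 change of the tested chemokines was 1.59, beside -0.11 for all genes. The falling members were Cxcl12 and Cxcl14, chemokines made by stromal cells and keratinocytes. Cxcl14 went from 2.58 and 3.03 to 1.04 and 0.761.

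Several cytotoxic genes rose in the same mice. Gzma, which encodes granzyme A, was at 0.179 and 0.447 without antigen and at 6.47 and 4.31 with antigen, a log2 change of 3.78 ± 0.34 (adjusted p = 0.00438). Gzmb, encoding granzyme B, was at 0.217 and 0.585 against 3.94 and 4.72, a log2 change of 3.24 ± 0.37 (adjusted p = 0.00932). Ifng, the gene of interferon gamma, was at 0.255 and 0.391 against 2.36 and 0.994, highest in AG mouse 1. In all, 9 of 16 tested cytotoxic genes rose and none fell, with a median log2 change of 0.93. Of the 14 at 0.1 or more in all 4 mice, 7 rose. Prf1, the gene of perforin, was at 0.655 and 0.577 without antigen and at 1.07 and 0.546 with it. Its groups overlapped.

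Among inhibitory receptors of T cells and related genes, 9 of 11 tested members rose and none fell. Tigit was at 0.103 and 0.0973 without antigen and at 1.41 and 1.11 with it, a log2 change of 2.76 ± 0.19 (adjusted p = 0.00271). Pdcd1, the gene of PD-1, was at 0.0177 and 0.0255 against 0.659 and 0.514, and Lag3 at 0.485 and 0.346 against 1.87 and 1.07. Havcr2, which encodes TIM-3, rose from 0.105 and 0.124 to 0.635 and 1.09. Of the 11, 4 reached a level of 0.1 in both NO_AG mice, and 3 of those 4 rose. Cd274, which encodes the PD-1 ligand PD-L1, rose from 0.0894 and 0.0871 to 0.216 and 0.333.

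Macrophage genes formed another block. C1qb, a chain of the complement starter C1q, was at 0.176 and 0.242 without antigen and at 3.22 and 6.50 with it, a log2 change of 3.93 ± 0.31 (adjusted p = 0.00282). C1qa went from 0.224 and 0.226 to 2.59 and 4.36, and C1qc from 0.131 and 0.134 to 1.84 and 3.18. AG mouse 2, with the larger myeloid share, had the higher level of each chain. Ms4a7, a membrane protein of macrophages, was at 0.0195 and 0.0133 against 0.672 and 1.25. Of 13 tested Fc receptor and complement genes 9 rose and none fell, and of 12 tested monocyte or macrophage markers 8 rose and none fell. Cd40 and Cd86, costimulatory molecules of antigen-presenting cells, were among 7 of 17 tested macrophage activation genes that rose. Many members of these lists did not reach 0.1 in both NO_AG mice and were tested through their levels in AG or AG_CPI mice. Of those at 0.1 or more in all 4 mice, 3 of 5 Fc receptor and complement genes, 5 of 6 monocyte or macrophage markers and 1 of 4 macrophage activation genes rose. Of 3 tested neutrophil markers none rose and 1 fell, and no mast cell marker was abundant enough to test.

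Many interferon-stimulated genes rose as well. Ifi27l2a, an interferon-induced mitochondrial protein, was at 0.896 and 1.78 without antigen and at 11.7 and 14.2 with antigen, a log2 change of 3.25 ± 0.29 (adjusted p = 0.00438). Isg15, a ubiquitin-like protein that is attached to other proteins during antiviral responses, was at 0.431 and 0.510 against 3.07 and 6.44, a log2 change of 3.0 ± 0.32 (adjusted p = 0.00724). Ifitm1, an interferon-induced membrane protein, was at 0.0697 and 0.0491 against 1.98 and 4.11. Of 23 type I interferon-stimulated genes with a column, 18 passed the filter on low levels and each of these 18 rose, with a median log2 change of 1.75. That filter favours genes that are high in any mice, since just 8 of the 18 reached 0.1 in both NO_AG mice, and each of these 8 rose. Irf7, a transcription factor that amplifies interferon responses, was at 0.133 and 0.214 against 0.847 and 1.13.

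The guanylate-binding proteins and related GTPases, which attack membranes of intracellular pathogens, rose in 10 of 11 tested members, and in 5 of the 6 at 0.1 or more in all 4 mice. Gbp2 was at 0.315 and 0.378 without antigen and at 1.37 and 2.02 with it, a log2 change of 1.99 ± 0.25 (adjusted p = 0.0114). Several members of this family are close copies, so the share of reads of each copy is uncertain. Upstream in the pathway, 8 of 16 tested members of the list of interferon gamma, receptors, kinases and factors rose while none fell. Irf1, a factor induced early by interferon gamma, was at 0.483 and 0.609 against 1.08 and 0.732 (log2 change 0.63 ± 0.20, adjusted p = 0.0961).

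The promoters of these genes are shown because the members moved together and interferon-responsive genes are known for the interferon-stimulated response element (ISRE), which interferon-activated transcription factors bind. The 250 bases before the start site were taken from the RefSeq promoters of build GRCm38.p6 and searched on both strands for TTTC, any 2 bases and TTTC again, which on the opposite strand reads GAAA, any 2 bases and GAAA. Capitals mark matches. Isg15 is transcribed from the minus strand of chromosome 4, and its upstream window spans chr4:156200819-156201068. Gbp2 is on the plus strand, and its window spans chr3:142620413-142620662.
Isg15: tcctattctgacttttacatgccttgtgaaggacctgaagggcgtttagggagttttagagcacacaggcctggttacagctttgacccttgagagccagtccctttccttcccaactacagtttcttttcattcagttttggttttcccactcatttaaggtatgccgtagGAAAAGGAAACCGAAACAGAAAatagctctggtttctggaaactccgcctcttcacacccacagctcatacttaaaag
Gbp2: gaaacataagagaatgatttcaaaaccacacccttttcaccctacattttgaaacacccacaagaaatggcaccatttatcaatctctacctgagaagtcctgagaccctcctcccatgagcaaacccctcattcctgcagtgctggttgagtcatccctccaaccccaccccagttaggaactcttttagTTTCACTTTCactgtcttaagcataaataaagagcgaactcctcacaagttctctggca
In Isg15 there are 3 overlapping matches, which begin 78, 72 and 66 bases before the start site, and in Gbp2 there is 1, which begins 59 bases before it. Windows of 30 bases around the first match are shown for 4 further members, chosen because they hold the motif. The window of Ifit3 is at chr19:34583363-34583392 (plus strand), of Bst2 at chr8:71537583-71537612 (minus strand), of Gbp7 at chr3:142530273-142530302 (plus strand) and of Igtp at chr11:58199512-58199541 (plus strand).
Ifit3: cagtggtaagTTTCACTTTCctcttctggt
Bst2: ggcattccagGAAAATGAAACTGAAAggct
Gbp7: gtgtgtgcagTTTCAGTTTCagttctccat
Igtp: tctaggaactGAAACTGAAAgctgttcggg

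Of the called interferon-stimulated genes, 13 had a promoter in the table, and 7 of those 13 held the motif. Ifit2, Oasl2, Ifi44, Xaf1, Irf7 and Ifi35 did not. All 6 of the called GTPases with a promoter in the table held it. Over the whole table, 2.98% of 32851 promoters held it, and among genes tested in whole skin 2.85% of 9148 promoters did. For genes higher in AG the share was 14.5% of 339 promoters, and for genes lower in AG it was 1.69% of 414. Cxcl9 and Psmb8 held no match to this motif in this window. Of the called class I presentation genes, 10 had a promoter in the table, and 2 of those 10 held the motif. A match says only that these letters are present.

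Class I presentation genes, whose products load peptides for CD8 T cells, rose in 12 of 20 tested members, with none lower and a median log2 change of 0.82. B2m, the shared light chain, was at 14.3 and 15.3 without antigen and at 26.9 and 26.1 with it (log2 change 0.84 ± 0.14, adjusted p = 0.0205). Psmb8, a subunit of the immunoproteasome, was at 2.63 and 3.42 against 7.61 and 6.00. The heavy chain H2-K1 was at 15.3 and 18.3 against 35.1 and 24.2, which missed the threshold (adjusted p = 0.0509), and reads of this gene can be shared with its close relatives. Of 9 tested class II genes, H2-Ab1 and Ctss rose and H2-DMb2 fell, the last from 0.267 and 0.270 to 0.152 and 0.147, a fall not seen with summed UMIs (log2 change 0.0077). H2-Ab1 was at 7.21 and 5.68 against 11.7 and 22.4.

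**Figure D3:**
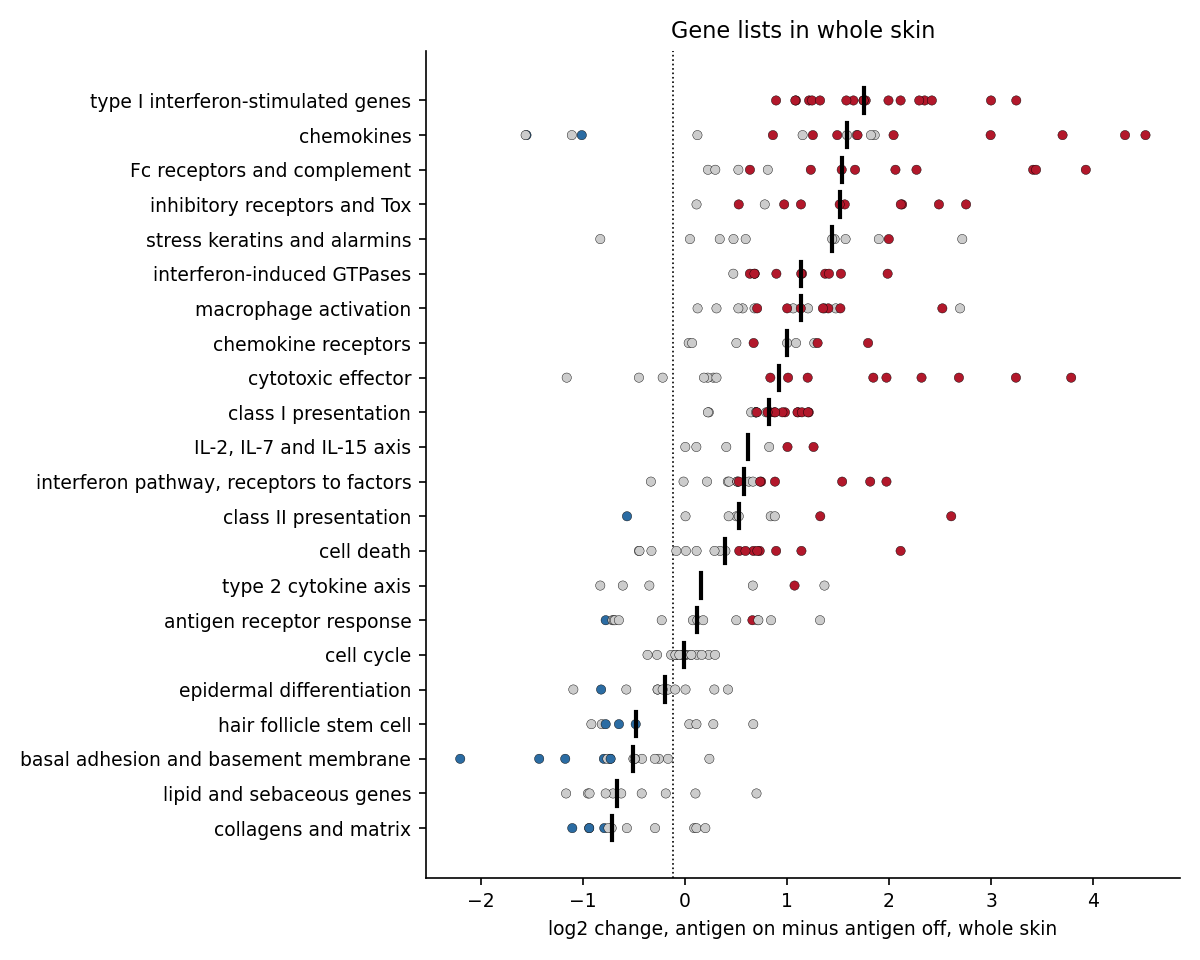
Log2 change, antigen on minus antigen off in whole skin (x axis), of each tested member of the fixed gene lists (y axis), with red for called higher, blue for called lower, grey for not called, a black bar for the list's median and a dotted line for the median of all genes at -0.11. The type I interferon-stimulated genes have the highest median, 1.75, and the collagens and matrix genes the lowest, -0.72.

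Among the 10 named decreases were several keratinocyte genes. Krt15, a keratin of basal and hair follicle stem cells, was at 32.1 and 28.5 without antigen and at 9.22 and 4.59 with it, a log2 change of -2.20 ± 0.34 (adjusted p = 0.0191). Clca3a2 was at 6.05 and 3.96 against 1.49 and 0.740, and Serpinb2, a protease inhibitor of the epidermis, at 0.868 and 0.822 against 0.256 and 0.142. Igfbp3, which binds insulin-like growth factors, was at 0.568 and 0.604 against 0.124 and 0.0205. Col17a1 and Dst, parts of the hemidesmosomes that anchor basal cells, fell with log2 changes of -1.17 and -1.43. Of 15 tested adhesion and basement membrane genes 5 fell and none rose, with a median of -0.50, and of 9 tested hair follicle stem cell genes 3 fell. At 0.1 or more in all 4 mice, 5 of 14 and 1 of 6 fell.

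The other named genes with lower levels belong to several kinds of cell. Cd207, the gene of langerin, which marks Langerhans cells, was at 1.11 and 0.840 without antigen and at 0.230 and 0.126 with it, a log2 change of -1.96 ± 0.21 (adjusted p = 0.00724). Of 4 tested Langerhans and dendritic cell markers it was the 1 that fell, and Ccr7, a receptor of migrating dendritic cells, rose from 0.0305 and 0.0542 to 0.128 and 0.126. Ltc4s, the synthase of leukotriene C4, was at 0.868 and 0.664 against 0.108 and 0.136. Pyy, the gene of the hormone peptide YY, fell from 0.346 and 0.258 to 0.0218 and 0.00711. Gnmt, a methyltransferase of glycine, was at 0.715 and 1.19 against 0.325 and 0.0876, Akr1c18, a steroid dehydrogenase, at 0.549 and 0.820 against 0.0643 and 0.208, and Calm5 at 0.543 and 0.609 against 0.163 and 0.0179. Col4a1 and Col4a2, collagens of basement membranes, and Sparc were 3 of 11 tested collagen and matrix genes that fell. Of the 8 at 0.1 or more in all 4 mice, 1 fell.

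None of 17 tested cell cycle genes passed the test, with a median log2 change of -0.01, and Mki67 was at 0.977 and 1.28 without antigen and at 0.521 and 1.54 with it. None of 10 lipid and sebaceous genes passed. Of 11 tested stress keratin and alarmin genes Stfa3 rose, from 1.03 and 0.998 to 6.97 and 2.69, and the median log2 change was 1.44. The stress keratins were split between the AG mice: Krt16 was at 0.114 and 0.0931 without antigen, at 0.397 in AG mouse 1 and at 3.51 in AG mouse 2, and Krt6a at 0.217 and 0.461 against 0.296 and 6.17. Neither Krt16 (adjusted p = 0.0805) nor Krt6a (adjusted p = 0.316) passed. Among cell death genes 8 of 17 rose (5 of the 12 at 0.1 or more in all 4 mice), led by Zbp1, a sensor of nucleic acids that is itself interferon-induced, at 0.117 and 0.163 against 0.839 and 1.04. Of 15 antigen receptor response genes, Nr4a3 rose and Egr1 fell. In the axes of the gamma-chain and type 2 cytokines, Il7r, Il2ra and Crlf2 rose, and no member fell.

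Each difference was then split exactly into a part from cell make-up (changed shares at mean levels) and a part from levels within the 5 classes. The median make-up part was 23.9% of the difference over 369 higher genes and 25.1% over 380 lower genes. Gate genes were left out. Make-up exceeded 50 percent of the difference in 25 of the higher and 11 of the lower genes. The estimate depends on the mice: over the 4 pairs of 1 NO_AG and 1 AG mouse the median ran from 14.7% to 32.1% for higher genes and from 13.7% to 38.2% for lower genes. The higher values came from AG mouse 1, and without AG mouse 2 the medians were 32.8% and 36.9%. The weights matter as well: antigen-off shares with antigen-on levels gave 34.02% and 19.3%, and antigen-on shares with antigen-off levels gave 15.6% and 33.0%. A change within a class can also be a change in its kinds of cell, as shown above for the T gate. With 11 finer classes, which divide the T gate by Trdc first, then by Cd8a or Cd8b1 and then by Cd4, the medians were 27.9% and 27.1%.

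**Figure D4:**
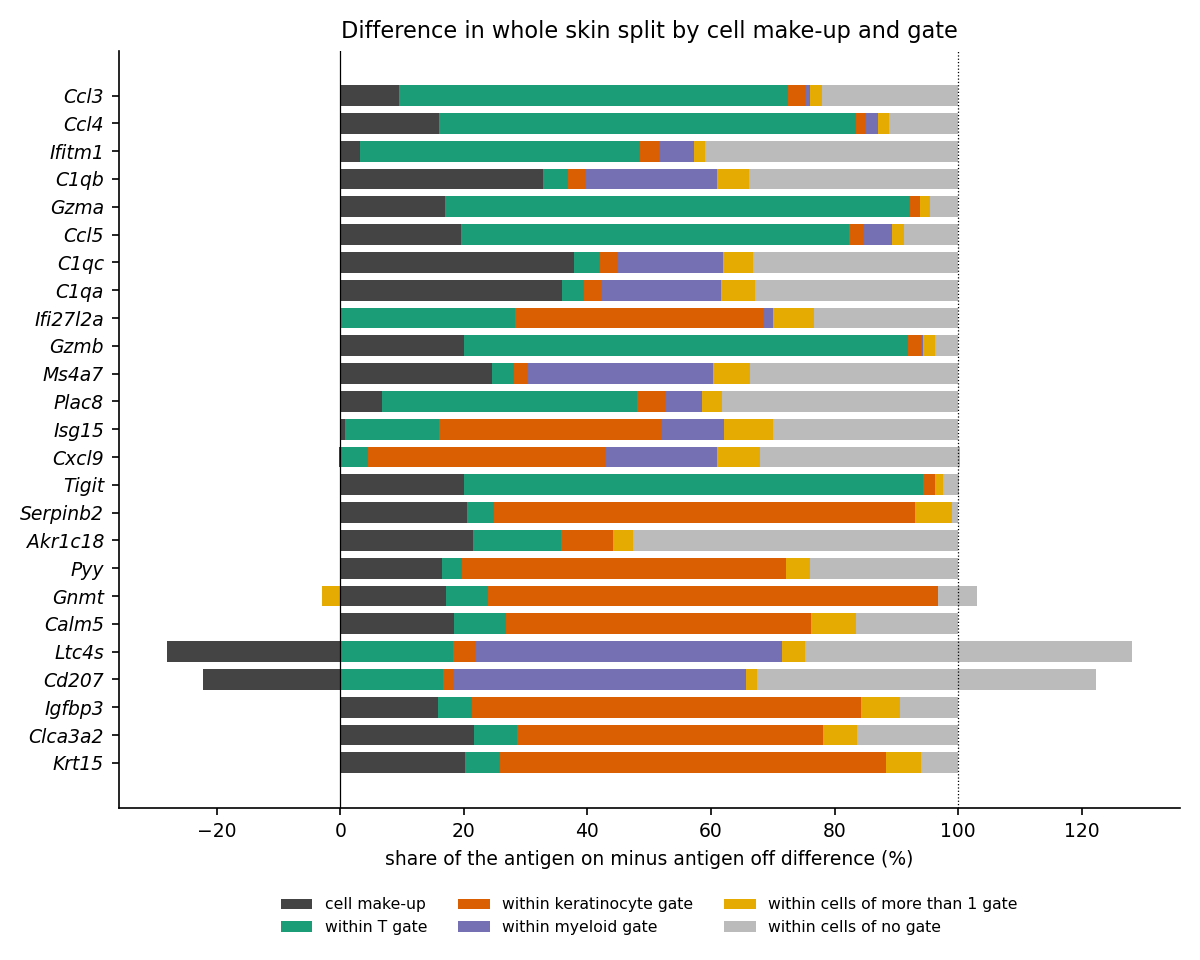
Share of the difference in mean level between antigen-on and antigen-off skin (x axis, %) that falls to cell make-up and to levels within each class, for the 25 genes with the largest changes (y axis), with negative parts drawn left of 0. Make-up is near 0 for Isg15, Cxcl9 and Ifi27l2a, and 32.8% for C1qb (16.4% with thinned gates). It is opposite in sign to the difference for Cd207 and Ltc4s, a sign that is lost with thinned gates (3.2% and 2.2%) and with stricter gates (16.6% and 8.1%).

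For the 18 interferon-stimulated genes the median make-up part was 2.76%, and 37.6% of their summed difference lay within the keratinocyte gate, 26.7% in cells of no gate and 21.5% within the T gate. Ifi27l2a rose by 11.6 UMIs per 10000, of which 4.66 lay within the keratinocyte gate and 3.27 within the T gate. For 11 called chemokines the median make-up part was 15.96%, and 59.4% of the sum lay within the T gate. Ccl5 and Ccl4 make up most of that sum, and for Cxcl9, which rose by 3.08, 0.14 lay within the T gate and 1.18 within the keratinocyte gate. Ccl5 rose by 36.5, of which 7.11 was make-up and 22.9 lay within the T gate. The make-up part of Ccl5 ran from 1.61 to 12.6 with the shares or levels of 1 group as weights, and was 4.35 without AG mouse 1. In T-gate cells with Cd8a or Cd8b1 and no Trdc UMI, the level of Ccl5 was 32.1 without antigen and 102 with it. In T-gate cells with a Trdc UMI it was 2.14 and 98.2, and that class also takes in cells with Cd8a or Cd8b1. Both are levels over the 2 mice of a group, with each mouse weighted by the class's share of its cells. For the class with Cd8a or Cd8b1 that share was 2.63% and 10.5% in the NO_AG mice.

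For 7 called monocyte or macrophage markers the median make-up part was 34.5%. C1qb rose by 4.65, of which 1.52 was make-up, 0.988 lay within the myeloid gate and 1.57 in cells of no gate. With gates on thinned cells the make-up part was 0.762, or 16.4% of the difference, and 17.4% for C1qa and 20.5% for C1qc. Without AG mouse 2 the difference of C1qb was 3.01 and its make-up part 0.969. Cells of no gate had a C1qb UMI in 1.76% and 1.79% of cells without antigen and in 7.80% and 26.3% with it, and Lyz2 in 2.06% and 2.31% against 6.43% and 21.7%. The no-gate class therefore holds macrophage RNA, in cells or as free RNA, and the division between them was not tested. For Krt15 the difference was -23.4, of which -4.72 was make-up and -14.6 lay within the keratinocyte gate, where Krt15 was not called. Without AG mouse 2 the difference of Krt15 was -21.1 and its make-up part -6.64. The make-up part of Krt15 ran from -7.15 to -2.29 with the weights of 1 group. For Cd207 the make-up part was 0.177 against a difference of -0.796, and its sign depends on the gates: it was -0.026 with thinned gates, -0.13 with stricter gates, -0.045 with antigen-off shares and antigen-on levels, and -0.0068 without AG mouse 2.

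Within the T gate, 154 of 8091 tested genes were higher (1.9%) and 202 lower (2.5%), 4.4% in all. In 40.6% of the tested genes both AG mice lay below both NO_AG mice, and in 14.4% above. TMM scaling gave 212 higher and 123 lower. Without NO_AG mouse 1, in which few T-gate cells had Cd8a, 11 genes were called, and without NO_AG mouse 2, 120 were. Leaving out either AG_CPI mouse gave 128 and 134. Of the 10 genes named for this gate, 4 were called without NO_AG mouse 1, and all 10 without AG mouse 2. Ifitm1 was at 0.114 and 0.0308 without antigen and at 3.29 and 4.32 with it (log2 change 4.53 ± 0.25, adjusted p = 0.000594). Gzma was at 0.456 and 1.05 against 11.4 and 10.3, Ccl4 at 0.908 and 2.33 against 22.5 and 19.1, and Ccl3 at 0.0678 and 0.391 against 6.99 and 5.36. Plac8 went from 0.00562 and 0.0110 to 0.681 and 2.49. Pdcd1 was at 0.0652 and 0.0768 against 1.18 and 1.31, a log2 change of 2.98 ± 0.13 (adjusted p = 0.000292).

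The genes that fell most in the T gate were Gcsam, Col27a1, Klrb1f, Tsc22d1 and Cntn1. Klrb1f, a lectin-like receptor of the natural killer family, went from 1.20 and 0.688 to 0.174 and 0.0389, and Gcsam from 1.09 and 0.837 to 0.163 and 0.0538. Xcl1, a chemokine that attracts cross-presenting dendritic cells, went from 15.3 and 10.9 to 4.77 and 2.89 (log2 change -1.77 ± 0.27, adjusted p = 0.0212). These changes stand beside the lower share of Trdc-positive cells within the T gate. As shares of all cells, T-gate cells with a Trdc UMI were 13.1% and 10.5% without antigen and 13.6% and 8.68% with it. Whether a given kind of T cell changed its levels was not tested here. Cd8a itself was at 1.00 and 3.85 against 6.51 and 4.80 (log2 change 1.45 ± 0.51, adjusted p = 0.159). Cd207, which T cells should lack, had a UMI in 4.74% and 4.26% of T-gate cells without antigen and in 0.774% and 0.841% with it. C1qb, also foreign to T cells, had one in 0.612% and 0.456% against 1.55% and 8.89%.

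Within the keratinocyte gate, 48 of 8021 tested genes were higher (0.598%) and 9 lower (0.112%), 0.711% in all. Leaving out AG mouse 1 gave 197 calls and leaving out AG mouse 2 gave 16. Without NO_AG mouse 1 there were 20 and without NO_AG mouse 2 there were 22. Without AG mouse 2, 5 of the 10 genes named for this gate kept their call, while Cxcl9, Sema3d, Tagln, Ifngr1 and Dst lost it, as did Krt79 and H2-Eb1, which are described further on. Of 15 tested interferon-stimulated genes 13 rose, with a median log2 change of 2.13 beside -0.07 for all genes, and 6 of the 15 reached 0.1 in both NO_AG mice. Isg15 was at 0.245 and 0.416 without antigen and at 4.38 and 6.70 with it (log2 change 3.71 ± 0.27, adjusted p = 0.0013). Ifi27l2a was at 1.07 and 1.95 against 20.01 and 14.9. Cxcl9 was at 0.221 and 0.406 against 4.08 and 4.54, and Ccl8, an attractant of monocytes and T cells, at 0.00581 and 0.00857 against 0.959 and 1.19. A C1qb UMI was found in 1.09% of these cells in AG mouse 1 and in 14.4% in AG mouse 2, and the part of macrophage RNA in the levels of these chemokines was not tested. Igfl3, of the insulin-like growth factor-like family, was at 0.00506 and 0.00536 against 1.25 and 1.26.

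In the same gate 1 of 13 tested epidermal differentiation genes rose (Krtdap), 1 of 9 hair follicle stem cell genes rose (Krt79) and 1 of 15 adhesion and basement membrane genes fell (Dst). Krtdap, a gene of differentiating keratinocytes, rose from 4.96 and 4.28 to 14.5 and 24.3 (log2 change 2.00 ± 0.24, adjusted p = 0.0102), and Krt79, a keratin of the upper hair follicle, from 11.4 and 8.66 to 35.6 and 24.0. Dst fell from 7.10 and 5.83 to 2.80 and 2.29 (log2 change -1.31 ± 0.18, adjusted p = 0.02). Ifngr1, a chain of the interferon gamma receptor, fell from 1.38 and 1.06 to 0.418 and 0.367. In the T gate the same gene rose, from 1.21 and 0.946 to 2.08 and 2.07, while the second chain Ifngr2 fell there. Pyy, Sema3d and Tagln were the other genes with the largest falls, and Tagln, an actin-binding protein, went from 0.375 and 0.545 to 0.0961 and 0.0652. Krt15 had a UMI in 95.7% and 92.8% of these cells without antigen and in 81.3% and 53.4% with it, and the cells of AG mouse 2 are the shallowest.

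The myeloid gate compares few antigen-off cells, 31 and 20, with 135 and 374 antigen-on cells. Of 6529 tested genes 418 were higher (6.4%) and 248 lower (3.8%), 10.2% in all. Without the AG_CPI mice 5650 genes were abundant enough to test in this gate. TMM scaling gave 524 higher and 184 lower. Without AG mouse 1 or AG mouse 2 there were 95 and 43 calls, and without NO_AG mouse 1 or NO_AG mouse 2 there were 2591 and 2302. Leaving out either AG_CPI mouse gave 244 and 247. Without AG mouse 2, 6 of the 10 genes named for this gate kept their call, while Cxcl9, Cxcl10, Mfge8 and Mmp9 lost it, as did Epcam and C1qb. The gate held different cells in the groups: Cd207 had a UMI in 45.2% and 40.0% of its antigen-off cells and in 12.6% and 2.41% of its antigen-on cells. The level of Cd207 there was 13.1 and 10.8 against 1.18 and 0.160, and Epcam, a second Langerhans cell gene, was at 6.56 and 6.33 against 0.826 and 0.323. Itgax, the remaining tested member of the Langerhans and dendritic cell markers, rose from 0.746 and 1.17 to 3.13 and 2.40. Mfge8, Ptgs1, Ltc4s and Mmp9 fell alongside, with log2 changes between -4.27 and -3.90. Mrc1, a mannose receptor of resident macrophages, went from 7.01 and 9.70 to 1.25 and 1.5.

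Among genes higher in the myeloid gate, Ccl5 was at 0.230 and 0 without antigen and at 34.6 and 61.0 with it. T cell genes were rare in the antigen-on cells of this gate, with a Cd3d UMI in 2.96% and 2.41% and a Gzma UMI in 0.741% and 1.87%. The part of T cell RNA in the level of Ccl5 was not tested. Cxcl9 was at 0 and 0.724 against 23.4 and 14.8, Cxcl10 at 0 and 0.303 against 6.30 and 5.79, and Il1rn, the inhibitor of interleukin 1, at 0.121 and 0 against 4.21 and 7.14. Sgk1, a kinase, was at 0 in both NO_AG mice and at 1.76 and 2.65 in the AG mice, and no fold is given for it. C1qb rose from 16.5 and 25.7 to 61.1 and 46.1, and 15 of 20 class I presentation genes rose, with a median log2 change of 1.33 beside -0.01 for all genes. Keratin genes, which myeloid cells should lack, also rose in this gate: Krt14 went from 0.365 and 0.674 to 2.44 and 1.98, and Krt5 from 0.129 and 0.367 to 1.501 and 1.19. Ccl8, which rose in the keratinocyte gate, fell here from 24.7 and 21.3 to 2.86 and 1.48 (log2 change -3.41 ± 0.29, adjusted p = 0.0014). The difference between these opposite changes was not tested.

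**Figure D5:**
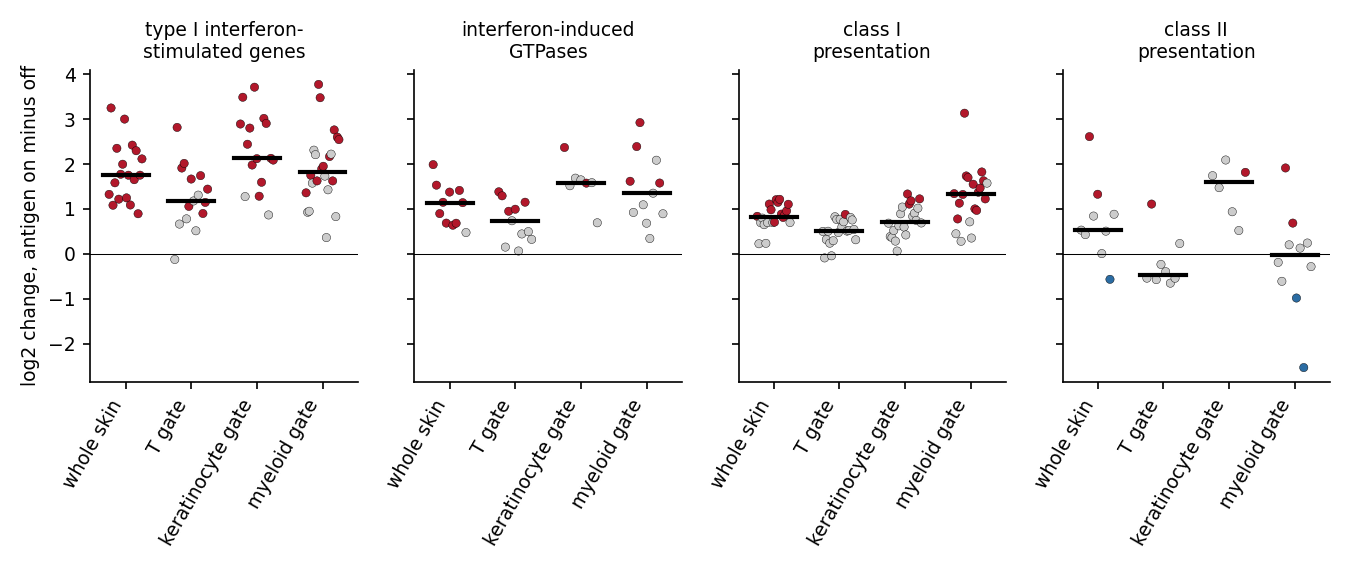
Log2 change, antigen on minus antigen off (y axis), of the tested members of the interferon-stimulated, GTPase, class I and class II lists in whole skin and in each gate (x axis), with red for called higher, blue for called lower, grey for not called and black bars for medians. The interferon-stimulated genes have medians of 1.75 in whole skin, 1.18 in the T gate, 2.13 in the keratinocyte gate and 1.82 in the myeloid gate.

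Across gates the tested interferon-stimulated genes were higher in 14 of 15 members in the T gate, 15 of 15 in the keratinocyte gate and 22 of 22 in the myeloid gate, of which 9, 13 and 12 passed the test. The filter on low levels sets part of these counts: among members at 0.1 or more in all 4 mice, 5 of 7, 4 of 6 and 6 of 10 passed. Leaving out 1 of the 4 mice, limma called 0 to 9, 8 to 13 and 0 to 21 interferon-stimulated genes as higher in the T, keratinocyte and myeloid gates, and 0 to 3, 0 to 2 and 0 to 17 class I genes. The myeloid calls were lowest without an AG mouse, and the T-gate interferon calls without a NO_AG mouse. Of 20 class I genes, 1 passed in the T gate (Psmb9), 4 in the keratinocyte gate and 15 in the myeloid gate. Whether the gates differ in the size of these changes was not tested. Class II genes had a median log2 change of -0.47 in the T gate and 1.61 in the keratinocyte gate. In the keratinocyte gate H2-Eb1 was the class II gene that passed, at 0.661 and 0.541 without antigen and 1.69 and 3.27 with it, and Cd74, the invariant chain, was at 2.45 and 2.41 against 5.63 and 12.4 (adjusted p = 0.0988). The higher value of both was that of AG mouse 2, in which C1qb also had a UMI in more of these cells, and the part of macrophage RNA in them was not tested.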

How the data were processed

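Per the labels' protocols, single-cell suspensions of treated skin were sequenced with a 10x Genomics 5' kit, and the submitters' processing notes name Cell Ranger 3.1 and mm10. The files deposited by the authors hold log10 of 1 plus the UMIs per 10000 UMIs of each cell, in 16158 genes. This unit was inferred from the values themselves. They were inverted and averaged over cells per mouse or gate, with no further scaling. Means were tested as log2 with a pseudocount of 0.1 in limma version 3.58.1 (R version 4.3.3, limma-trend, group as the only term, 6 mice sharing the spread), with p-values adjusted by Benjamini and Hochberg over all genes tested. Log2 changes are on this scale, which understates changes of low genes. Genes needed a mean of 0.1 and 10 cells in at least 2 of the 6 mice. A few results, a second promoter motif among them, are not reported here. Single values used an exact permutation test in scipy version 1.17.1. The fit and the split were checked on simulated data.

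Named genes are the 15 higher and 10 lower (5 and 5 within a gate) with the largest changes among called genes whose groups do not overlap, without receptor segments, sex-linked, mitochondrial, ribosomal protein or unnamed genes, and up to 4 members per list, called members first, by level. List members outside this rule, among them Prf1, Pdcd1, Cd274, Cxcl10, Cxcl14, Irf1, H2-K1, Krt6a, Krt16 and Cd74, were named after their values were seen. The members, gates and lists were chosen with earlier results of these data known. A few listed symbols had no column and are not used here. Wilson 95% intervals cover counting error only.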

Additional observations from a re-analysis of the deposited data

Results flagged for a closer look

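The AG_CPI mice entered the fits above but were not compared. Only their shares in the T gate and the myeloid gate were looked at here, and both exceeded those of the antigen-off controls. Their T gate held a mean of 70.0% of cells (69.0% and 71.0%, n = 2), against at most 32.1% in a NO_AG mouse. Their myeloid gate held a mean of 9.44% (7.70% and 11.2%), against at most 0.623% in a NO_AG mouse. Neither difference was tested.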

How the results depend on the processing

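With 2 mice per group, the calls rest on a spread that limma shares across genes and groups, and low genes and the myeloid gate are limited by depth and cell number. In whole skin, 751 calls became 450 with no filter on low levels and 1386 with summed UMIs, and 23 to 1155 when 1 mouse was left out. In the T gate, 356 became 230 with a pseudocount of 0.02, 43 with no filter, 161 with 4 mice only, 884 with summed UMIs and 541 with gates on thinned cells, and 11 to 461 when 1 mouse was left out. In the keratinocyte gate, 57 became 3 with no filter and 87 with summed UMIs, and 16 to 197 when 1 mouse was left out. In the myeloid gate, 666 became 298 with 4 mice only and 294 with thinned gates, and 43 to 2591 when 1 mouse was left out. The median make-up part of higher genes became 34.02% with antigen-off shares and antigen-on levels, and 15.6% with antigen-on shares and antigen-off levels. For lower genes these weights gave 19.3% and 33.0%. H2-DMb2 in whole skin changed sign with summed UMIs (log2 change 0.0077). The cause was not tested for any of these.

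The labels number the replicates alike in each group, but deviations of mice with the same number correlated between -0.068 and 0.080 over genes, which gives no sign that the numbers pair the mice. With the replicate number as a block, the calls were 439 in whole skin, 346 in the T gate, 71 in the keratinocyte gate and 548 in the myeloid gate. Of the single-gene values under alternatives, 4324 stayed on the same side of the threshold, 723 kept direction and lost the call, and 97 gained one. The 4324 can include changes of direction in genes called in neither fit.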
